A study of Homo sapiens with 8 samples.

Results

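The p53 and RB pathways are followed here through 9 genes: RB1, CDKN1A, CDKN1B, CCND1, MDM2, GADD45A, MCL1, E2F1 and CDKN2A. Their messenger RNAs were searched for peaks of N4-acetylcytidine (ac4C), an acetylated form of cytidine, in SiHa cells and in SiHa cells without NAT10, the acetyltransferase that forms ac4C in RNA. A member was any peak whose Ensembl gene identifier could be matched to 1 of the 9 symbols through RefSeq gene spans on GRCh38. Of 9046 identifiers with a peak in either list, 7 belonged to these genes, and they held 27 of 17481 peaks. E2F1 and CDKN2A had no peak in either list. Since the genes were put together with earlier results of these data known, their counts are descriptions.

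SiHa is an established line from a cervical squamous carcinoma that carries integrated DNA of a high-risk human papillomavirus. The 8 libraries form 4 groups of 2 biological replicates: input RNA and ac4C-antibody-enriched RNA of unmodified SiHa cells, and the same pair of libraries from NAT10-knockout SiHa cells. No treatment is named for either population, and the labels do not say how the knockout was made or whether it is 1 clone. What was deposited is 1 list of called peaks per population, with a p-value for every peak and, in the knockout list alone, a false discovery rate (FDR) and a fold enrichment. The list whose name has an added K was read as that of the knockout, which no label states in words.

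The tumour suppressor p53 switches on genes that stop the cell cycle or start cell death, and MDM2 in turn marks p53 for degradation. RB1 holds back the E2F factors until cyclin D and its kinases phosphorylate it, and CDK inhibitors such as p21 (CDKN1A) and p27 (CDKN1B) oppose that step. In papillomavirus-positive cervical cancer the viral E6 protein directs the ligase UBE3A to p53 and the viral E7 protein binds and removes RB, so both pathways are disabled at the protein level while their genes are usually intact. Many of these transcripts are short-lived, and ac4C has been linked to the stability and translation of messenger RNA.

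The targeted gene NAT10 had 1 SiHa peak (deposited p of 5e-37) and no knockout peak, which is no measure of its transcript level. The SiHa list held 12924 peaks in 7291 genes and the knockout list 4557 peaks in 3726 genes. Peaks were found in SiHa for 5 of 10 epithelial and squamous markers (KRT5, KRT13, KRT19, KRT8 and EPCAM) and in the knockout for 3 (KRT19, KRT8 and KRT18). Of 6 markers of other cells, HBB, ALB and VIM had peaks in both lists, PTPRC and PECAM1 had a knockout peak alone and COL1A1 had none. The part of such RNA in the results below was not tested. Neither list gives counts, read depth or a value for a single replicate, so the variation among replicates is unknown and no test between the populations was made. A missing peak therefore cannot be told apart from a transcript that was less abundant or less deeply read.

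Of the 7 genes with peaks, 4 had SiHa peaks alone: RB1, CDKN1A, CDKN1B and GADD45A. CCND1, MDM2 and MCL1 had peaks in both lists, and none of the 9 had a knockout peak alone. Genes that lacked a knockout peak thus made up 57.1% of those with a SiHa peak (4 of 7, 95% exact Clopper-Pearson interval 18.4 to 90.1%, which covers counting of genes only). Over all genes with a SiHa peak it was 73.0%, which lies inside that interval. None of the 3 genes with a knockout peak lacked a SiHa peak (exact upper bound 70.8%), against 47.1% of all genes with a knockout peak. The 9 genes held 21 SiHa peaks with 7719 bases and 6 knockout peaks with 1084 bases.

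**Figure D1:**
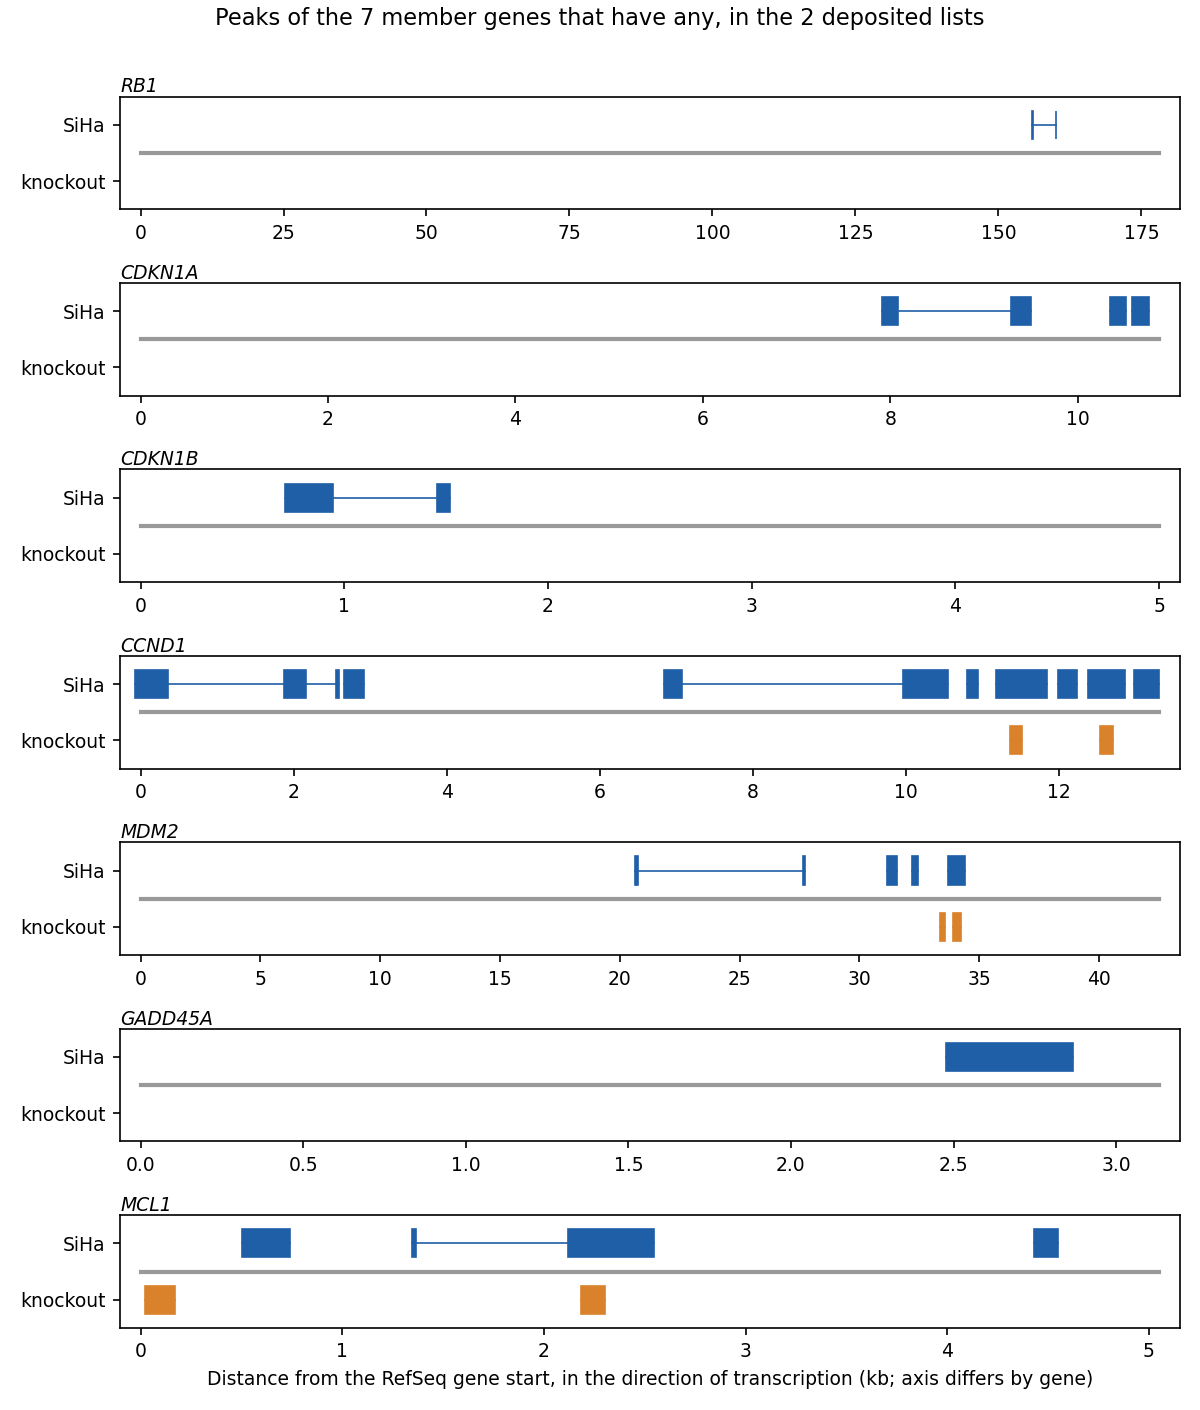
Each panel shows 1 gene from its RefSeq start (left) to its end along the direction of transcription, in kb on an axis of its own; blue bars are blocks of SiHa peaks, orange bars blocks of knockout peaks, and thin lines join the blocks of 1 peak across a gap. RB1, CDKN1A, CDKN1B and GADD45A carry blue bars alone, and the 6 knockout peaks lie in CCND1, MDM2 and MCL1.

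RB1, the retinoblastoma protein that E7 removes, had a single SiHa peak of 151 bases (ENSG00000139687, GRCh38 chromosome 13, plus strand). Its 128-base block at 48459706 to 48459833 and its 23-base block at 48463731 to 48463753 were separated by a gap of 3897 bases, a form that a peak across joined exons takes. The peak lay at 87.9% of the gene's span of 178140 bases. Its deposited p was 1.8e-10, and 49.3% of all SiHa peak genes had a strongest peak at least as strong, so RB1 stood in the middle of the list. It covered 0.0848% of the span, introns included.

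The 2 CDK inhibitors differed in where their peaks lay. CDKN1A (ENSG00000124762, chromosome 6, plus strand), the p53 target that encodes p21, had 3 SiHa peaks. The first had blocks of 176 bases (36684371 to 36684546) and 214 bases (36685751 to 36685964) and a deposited p of 1.4e-08. The next, of 180 bases at 36686801 to 36686980, had a p of 0.00022, and the last, also of 180 bases at 36687040 to 36687219, had a p of 0.0042. These last peaks ended 352 and 113 bases before the RefSeq 3′ end of the gene. The strongest peak of CDKN1A was about as strong as that of the median gene, since 54.7% of genes reached its p. CDKN1B (ENSG00000111276, chromosome 12, plus strand), which encodes p27, had 1 peak near the other end of its gene, starting 708 bases after the RefSeq start. Its blocks of 239 bases (12718076 to 12718314) and 61 bases (12718825 to 12718885) were 510 bases apart. The deposited p was 4e-42, and 20.8% of genes had a peak at least as strong. CDKN1B was thus the stronger of the pair by deposited p, with fewer covered bases (300 against 750).

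GADD45A, a p53 target that acts in DNA damage arrest, had the strongest peak among the 4 of the 9 genes that had SiHa peaks alone. This single peak had 390 bases in 1 block (ENSG00000116717, chromosome 1, 67687679 to 67688068, plus strand), ended 266 bases before the RefSeq 3′ end and had a p listed at 0. A p of 0 was listed for 281 of 7291 SiHa genes (3.85%). CCND1, MDM2 and MCL1, whose strongest peaks also had a p listed at 0, did have knockout peaks. Over the whole list, however, just 25.9% of SiHa peaks with p listed at 0 were overlapped by a knockout peak. A knockout peak was lacking in 73.0% of all SiHa peak genes. MAGI3, in a list read below, likewise had a p listed at 0 and no knockout peak.

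CCND1, which encodes cyclin D1, the partner of the kinases that phosphorylate RB, had the most peaks and the most covered bases of the 9 genes. Its 8 SiHa peaks (ENSG00000110092, chromosome 11, plus strand) covered 3727 bases, 28.0% of the gene's span. As many peaks were found in 0.658% of SiHa peak genes, and as many bases in 0.192%. The first peak, with 751 bases in 3 blocks between 69641087 and 69643750, began 69 bases upstream of the RefSeq start and had a p of 1e-197. The next, of 271 bases at 69643810 to 69644080, had a p of 1.6e-13. The peak with the most bases, 841, had blocks at 69647998 to 69648240 and 69651118 to 69651715 and a p of 1e-229. The other 5 were single blocks in the last part of the gene, up to its RefSeq end. Their p-values from 5′ to 3′ were 0.0016 (150 bases from 69651955), 0 as listed (661 bases from 69652344), 4.1e-10 (241 bases from 69653154), 1e-158 (481 bases from 69653544) and 2.5e-62 (331 bases from 69654144). All but the first of these 5 were stronger than the median SiHa peak.

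The knockout list held 2 CCND1 peaks, both in that last stretch. One had 151 bases at 69652524 to 69652674, with a p of 9.8e-09, an FDR of 2.45e-07 and a fold of 35.9. The other had 181 bases at 69653694 to 69653874, with a p of 4e-24, an FDR of 2.51e-22 and a fold of 15.7. Both lay wholly inside SiHa peaks, those of 661 and 481 bases. The 6 other SiHa peaks of CCND1, among them the strong ones at the start and across the long gap, had no knockout peak over them. Covered bases were 11.2 times as many in SiHa as in the knockout, against a median of 1.84 times over the 1971 genes with peaks in both lists.

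MDM2, the p53 target that encodes the ligase acting on p53, had 4 SiHa peaks (ENSG00000135679, chromosome 12, plus strand) with 1590 bases. The first had blocks of 124 and 86 bases between 68828808 and 68835914, 6897 bases apart, and a p of 0.0012. A peak of 450 bases at 68839305 to 68839754 had a p listed at 0, the next of 241 bases at 68840383 to 68840623 a p of 1.9e-05, and the last, of 689 bases at 68841881 to 68842569, again a p listed at 0. The knockout list had 2 peaks in the same end of the gene. That of 301 bases at 68842090 to 68842390 (deposited p of 3.2e-23, FDR 2e-21, fold 11.1) lay wholly inside the 689-base SiHa peak. That of 181 bases at 68841551 to 68841731 had the highest fold and the lowest p of the 6 knockout peaks (fold 51.0, deposited p of 1.3e-91, FDR 5.01e-89), and it was overlapped by no SiHa peak, with 149 bases between them. The 450-base SiHa peak with p listed at 0 had no knockout peak within 1796 bases.

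Peaks of other identifiers lay over those of MDM2 and CCND1, which limits what can be assigned to either gene. At MDM2, a further identifier on the plus strand, ENSG00000256664, had a SiHa peak and a knockout peak inside or across the MDM2 ones, with the same deposited p of 0 in SiHa and 3.2e-23 in the knockout. On the opposite strand, CPM had peaks that shared 133 bases with MDM2 in both lists (deposited p of 1e-280 in SiHa and 5e-15 in the knockout), and ENSG00000257181 shared 138 bases with the 181-base knockout peak (deposited p of 3.2e-92). At CCND1, ENSG00000149716 on the minus strand had a SiHa peak over the 241-base and 331-base CCND1 peaks. It shared 253 bases with the latter and carried the same p, 2.5e-62. Equal deposited p-values at overlapping peaks were common. Of 927 SiHa peaks over a peak of another identifier with a p above 0 and below 1e-04, 432 (46.6%) had an equal p there, and in the knockout 156 of 255 (61.2%). Whether the authors' caller used strand is not given in the sources used here, so reads of these genes and their overlapping partners cannot be told apart.

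MCL1, a BCL2-family protein that blocks cell death and is turned over quickly, had 3 SiHa peaks with 811 bases (ENSG00000143384, chromosome 1, minus strand). From 5′ to 3′ these were 240 bases at 150578870 to 150579109 (deposited p of 1e-12), 450 bases between 150577065 and 150578266 with p listed at 0, and 121 bases at 150575060 to 150575180 (deposited p of 0.0048). The middle peak was made of blocks of 427 and 23 bases, 752 bases apart. In the knockout, a peak of 120 bases at 150577305 to 150577424 (deposited p of 1.6e-34, FDR 2e-32, fold 6.72) lay wholly inside the 427-base block. The other knockout peak, of 150 bases at 150579439 to 150579588, began 22 bases after the RefSeq start and was 329 bases from the nearest SiHa peak. Its p of 0.01 corresponded to an FDR of 0.526, so by the authors' own column it was the 1 peak of the 6 above 0.05. Over the whole knockout list 25.0% of peaks were above 0.05.

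**Figure D2:**
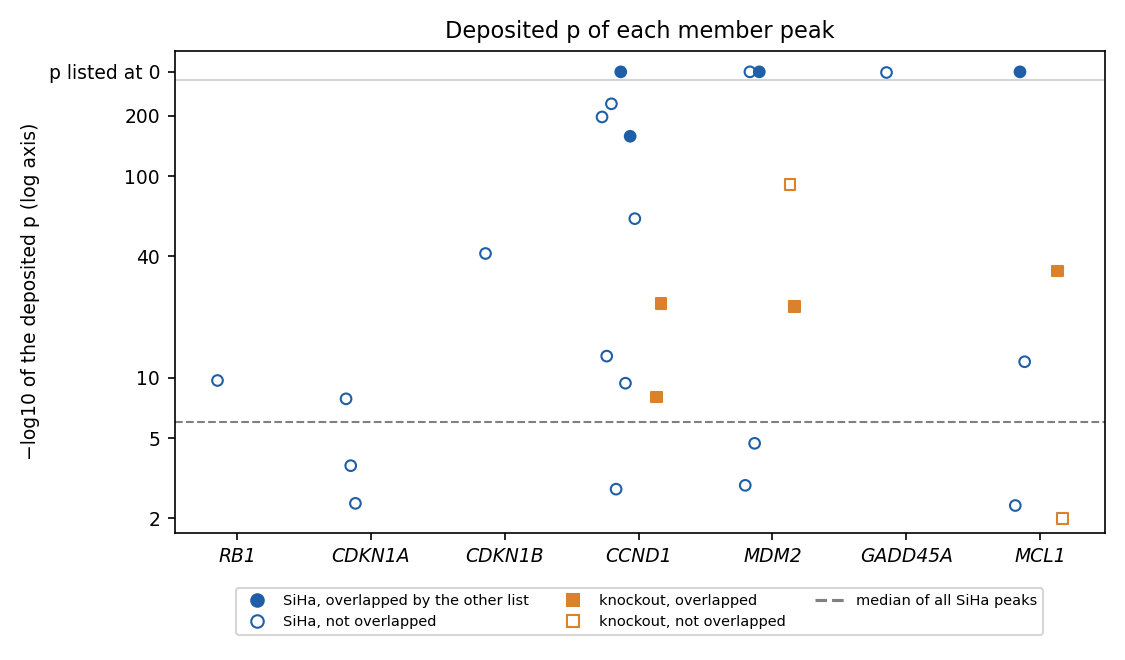
The vertical log axis gives −log10 of the deposited p of each peak of the 7 genes with peaks, with p-values listed at 0 drawn in a band at the top; circles are SiHa peaks and squares knockout peaks, filled where a peak of the other list overlaps. The 4 filled circles are 3 peaks with p listed at 0 and the CCND1 peak at 1e-158, and the dashed line marks the median of all SiHa peaks, 6.05.

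Across the 9 genes, 4 of 21 SiHa peaks were overlapped by a knockout peak on the same strand by at least 1 base (19.0%, exact interval 5.45 to 41.9%), and over all SiHa peaks 6.76% were. Within CCND1, MDM2 and MCL1 the share was 26.7% of 15 peaks, and within all genes with peaks in both lists 20.5%. In the knockout, 4 of 6 peaks were overlapped, against 19.2% of all knockout peaks. The overlapped SiHa peaks were 2 of CCND1 and 1 each of MDM2 and MCL1. They had a median of 571 bases, and the 17 others had a median of 241. The 4 knockout peaks over them had 120 to 301 bases and lay wholly inside, as did 54.9% of the 876 overlapped knockout peaks in the list. When overlap had to reach 50% of both peaks, none of the 21 counted. SiHa peaks with p listed at 0 numbered 5 of 21 (2.39% of all SiHa peaks), in CCND1, MDM2 (2 peaks), MCL1 and GADD45A. Of these 5, 3 were overlapped, and over all 309 SiHa peaks with p listed at 0 the share was 25.9%.

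**Figure D3:**
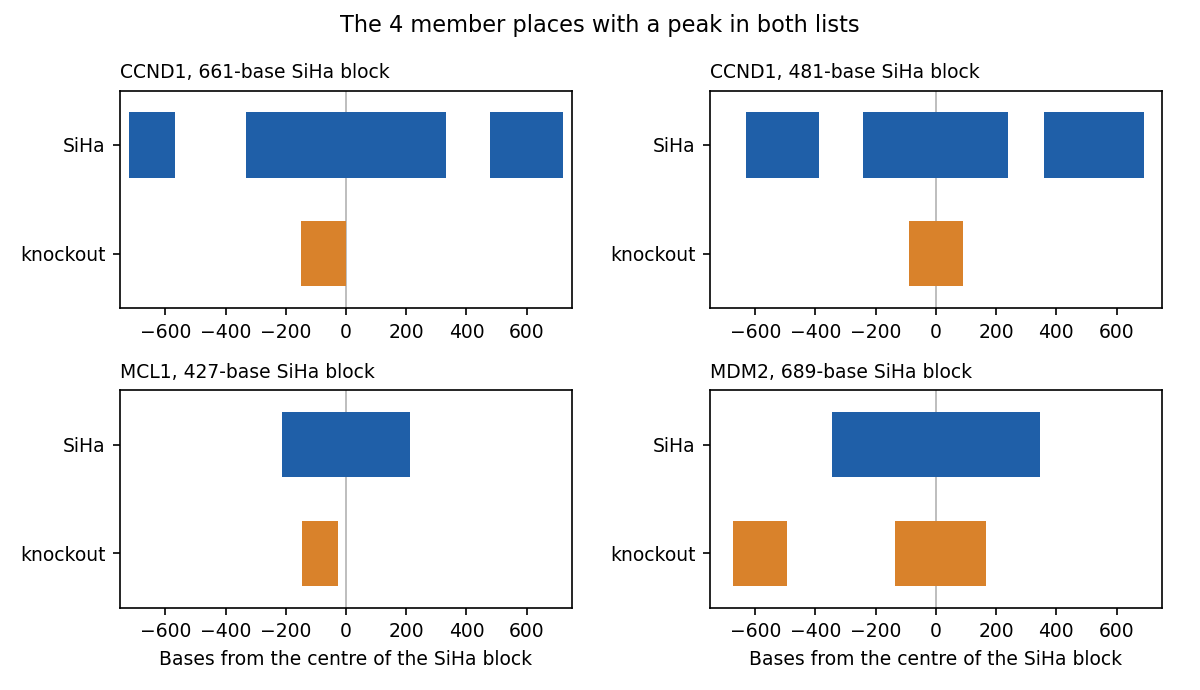
Each panel is centred on the longest block of a SiHa peak that a knockout peak overlaps and spans 750 bases to either side, in the direction of transcription; blue bars are SiHa blocks and orange bars knockout blocks of the same gene. In all 4 panels the overlapping knockout peak (151 and 181 bases in CCND1, 120 in MCL1, 301 in MDM2) lies within the SiHa block, and in MDM2 a further knockout peak lies 149 bases outside it.

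The other features of the 7 genes with peaks can be read beside those of the whole list. A p listed at 0 occurred in 4 of 7 genes (CCND1, MDM2, GADD45A and MCL1) and in 3.85% of all SiHa peak genes. CDKN1A, CCND1, MDM2 and MCL1 had 3 or more SiHa peaks, which 18.3% of genes had. The median SiHa peak of these genes had 300 bases, with a range from 121 to 841, and the median over all SiHa peaks was 181. Peaks with more than 1 block made up 7 of 21, against 25.2% of all SiHa peaks, and none of the 6 knockout peaks had a second block. Peaks that ended within 1000 bases of the RefSeq 3′ end, or past it, made up 6 of 21 SiHa peaks (28.6%), in CDKN1A, CCND1, GADD45A and MCL1, and 19.1% of all SiHa peaks in named genes. The expression level of these genes is not in the lists, so its part in these counts was not tested.

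The fold enrichments of the knockout list need a caution. Of its 4557 peaks, 60.0% had a fold equal, after rounding to 3 significant digits, to a whole multiple of 2.5635, referred to here as the repeated fold series. The CCND1 peak with a fold of 35.9 was the multiple 14 and the MCL1 peak with 10.3 the multiple 4. The other 4 knockout peaks of the 9 genes, with folds of 6.72 to 51.0, were off it. Of the folds given below for other genes, those of BTG2, TFDP2, E2F2, E2F6, CDC45, CDK6 and BCL2 were on that series. Without the peaks of that series CCND1, MDM2 and MCL1 still had peaks in both lists, and 3 SiHa peaks were overlapped in place of 4.

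The wider pathways were read through 7 lists with 158 genes, of which 89 had a peak under a unique name. In all, 45 had SiHa peaks alone, 22 peaks in both lists and 22 a knockout peak alone. The median gene of these lists with a SiHa peak had a strongest −log10 p of 14.1, against 9.39 over all genes. Of the 67 genes with a SiHa peak 67.2% had no knockout peak, and of the 44 with a knockout peak 22 had no SiHa peak. These shares were close to the 73.0% and 47.1% over all genes.

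**Figure D4:**
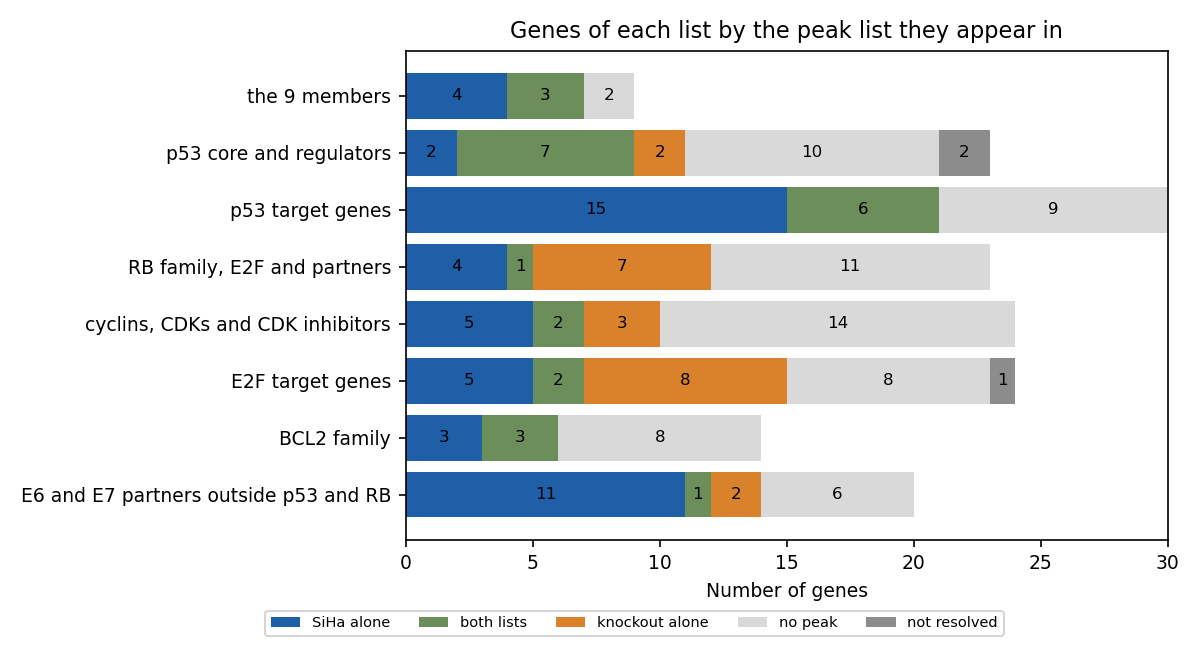
Horizontal bars give the number of genes of the 9 members and of each pathway list, divided by whether the gene has SiHa peaks alone, peaks in both lists, knockout peaks alone, no peak, or peaks that could not be given a unique name. The orange part, knockout alone, is 0 of 30 p53 target genes and 15 of the 47 genes in the 2 lists of the RB family and of E2F targets. It is also 0 in the 9 members and the BCL2 family. It is 3 of 24 cyclin and CDK genes, 2 of 23 p53 core genes and 2 of 20 E6 and E7 partners. Of genes with a knockout peak, the orange part is 0 of 6 p53 targets and 15 of 18 genes in the RB and E2F lists. Over all genes with a knockout peak the share is 47.1%.

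Among 30 p53 target genes, 21 had a SiHa peak and none had a knockout peak alone. By gene, 15 of the 21 (71.4%) had no knockout peak, close to the 73.0% over all genes. Their median strongest −log10 p was 10.7. TRIAP1, an inhibitor of apoptosis (deposited p of 1e-102), the cytokine gene GDF15 (7.9e-85), the ribonucleotide reductase subunit RRM2B (2.5e-31) and the nuclease AEN (2.5e-21) had the strongest of the peaks in SiHa alone. THBS1, which encodes thrombospondin, had 10 SiHa peaks with 4947 bases and 1 knockout peak with a fold of 17.4. The death receptor TNFRSF10B had 3 SiHa peaks, with p listed at 0 for the strongest, and 1 knockout peak with a fold of 11.8. BTG2, an antiproliferative factor, had 2 SiHa peaks and a knockout peak with a fold of 71.8. In THBS1, TNFRSF10B and BTG2 a knockout peak overlapped a SiHa peak. The kinase gene PLK2 and BAX, a pore-forming death effector, also had peaks in both lists, at different places.

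In the list of the RB family, the E2F factors and their partners the share of SiHa peak genes that lacked a knockout peak was 80.0% (4 of 5, exact interval 28.4 to 99.5%), near the 73.0% of the whole list. A knockout peak alone was found for 7 of 23 genes: RBL1, which encodes the RB relative p107, E2F2, E2F4, E2F6, the E2F partner TFDP2, LIN9 and RBBP7. Of the 8 genes of this list with a knockout peak, 7 had no SiHa peak (87.5%, exact interval 47.3 to 99.7%), and over all 3726 genes with a knockout peak the share was 47.1%. RBL1 had the lowest deposited p (1.3e-57, fold 25.4), then TFDP2 (1e-27, fold 113) and E2F2 (1.3e-10, fold 43.6), and E2F4 followed (3.5e-10, fold 2.79). E2F6 had a fold of 15.4 and an FDR of 0.155. SiHa peaks alone were found for E2F3, with 5 peaks and a strongest p of 1e-149, the E2F partner TFDP1 (1e-36), the repressor E2F7 (2.5e-09) and the mitotic factor FOXM1 (7.8e-08). KDM5A, a demethylase that binds RB, had 4 SiHa and 3 knockout peaks, and 3 of the SiHa peaks were overlapped.

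Among 24 E2F target genes, a knockout peak alone was found for 8: MCM5 and MCM6 of the replicative helicase, the ribonucleotide reductase subunit RRM1, the licensing factor CDT1, the helicase cofactor CDC45, the polymerase subunit POLA1, the apoptosis inhibitor BIRC5 and the methyltransferase EZH2. These are 80.0% of the 10 with a knockout peak (exact interval 44.4 to 97.5%, which includes the 47.1% over all genes). Of the 7 with a SiHa peak, 71.4% had no knockout peak. The highest folds of the 8 genes with a knockout peak alone ran from 1.89 in EZH2 to 28.2 in CDC45, and all 8 had an FDR of at most 0.05. SiHa peaks alone were found for MCM3 (deposited p of 1.6e-70), the ubiquitin ligase UHRF1 (7.9e-49), the maintenance methyltransferase DNMT1 (1e-06), thymidine kinase TK1 (3e-06) and the sliding clamp PCNA (4e-05). MKI67, the proliferation antigen, had 5 SiHa and 2 knockout peaks, 1 of them shared in place, and CCNF had 1 in each list at different places, its knockout peak with an FDR of 0.526.

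In these 2 lists, combined with their counts known, 15 of 18 genes with a knockout peak had no SiHa peak (83.3%, exact interval 58.6 to 96.4%), against 0 of 6 p53 targets (upper bound 45.9%) and 47.1% of all genes. The 9 members and the BCL2 family, with 3 knockout peak genes each, also had none with a knockout peak alone. Their upper bound of 70.8% lies above the 47.1% over all genes, so these 2 counts do not differ from it. The intervals cover counting of genes only, and no test was made. Of the 15 genes, 14 had a peak with FDR of at most 0.05 (72.3% over all genes with a knockout peak alone), and 8 had all their peaks on the repeated fold series (65.8% over all). Without the knockout peaks of that series, or with only peaks whose −log10 p was above 8, the number fell from 15 to 7, and that of p53 targets remained at 0. The shares among genes with a knockout peak were not recomputed in these settings. Whether they remain apart from the share over all genes is therefore not known.

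**Figure D5:**
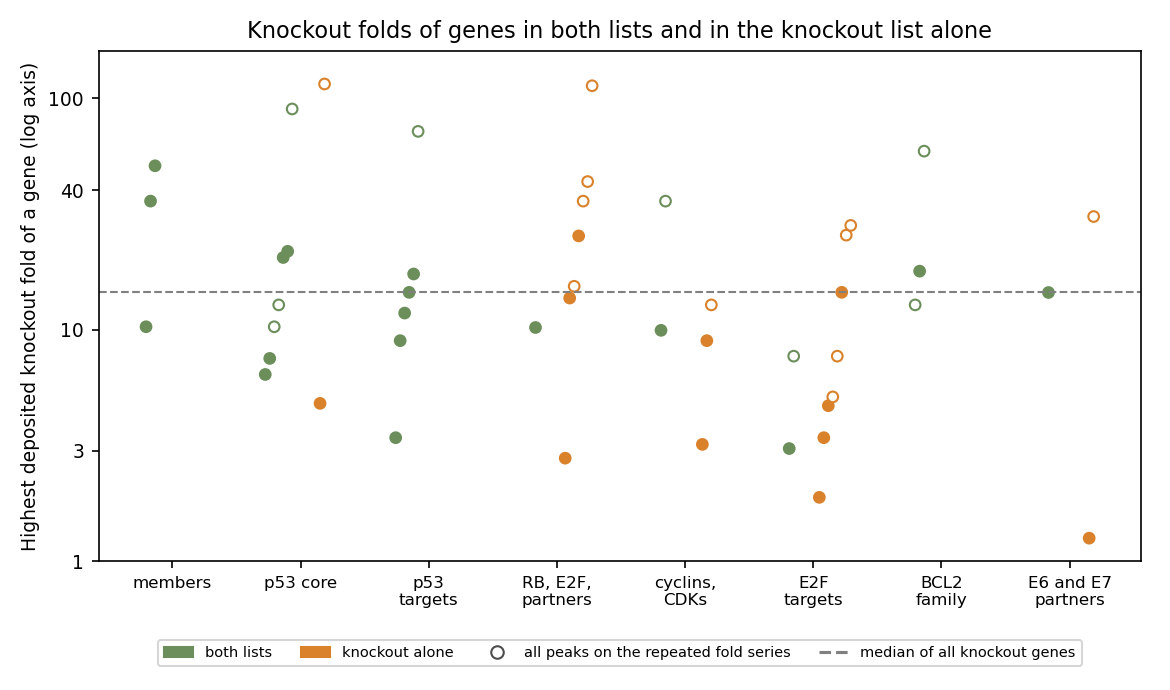
Each point is a gene with a knockout peak, placed by the highest deposited fold on a log axis; green points are genes with peaks in both lists, orange points genes with a knockout peak alone, and open points have all their peaks on the repeated fold series. Orange points number 7 and 8 in the RB and E2F lists, 3 in the cyclins and CDKs, 2 in the p53 core and 2 in the E6 and E7 partners. The members, the p53 targets and the BCL2 family have none, and the dashed line is the median of all knockout genes, 14.5.

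Of 24 genes of cyclins, CDKs and their other inhibitors, 14 had no peak in either list. SiHa peaks alone were found for 5: the small CDK subunit CKS1B (deposited p of 7.9e-15), MNAT1 of the CDK-activating kinase (5.8e-09), the kinase WEE1 (8.9e-09), the inhibitor CDKN2C (4.7e-07) and CDK7 (0.00037). These were 71.4% of the 7 genes with a SiHa peak (exact interval 29.0 to 96.3%), near the 73.0% over all genes. CDK6, a cyclin D partner, had 6 SiHa peaks, none with a p below 0.0016, and a knockout peak at another place with a fold of 35.9. FBXW7, which directs cyclin E to degradation, had 2 SiHa peaks and 1 overlapping knockout peak. CCND3, CDK1 and CCNH had a knockout peak alone, with an FDR of 0.0724 in CCND3. They were 60.0% of the 5 genes with a knockout peak (exact interval 14.7 to 94.7%, which includes the 47.1% over all genes). CDK4, which acts beside CDK6, had no peak in either list, and CCNE1 and CCNE2 had none.

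Among 23 core and regulatory genes of p53, 7 of the 11 with a peak had peaks in both lists, as did 1971 of all 9046 identifiers. The p53 inhibitor MDM4, the ligase UBE3A and NPM1 had a knockout peak over a SiHa peak. MDM4 had 2 peaks in each list, with a SiHa p of 1e-238. UBE3A, which E6 uses against p53, had 1 SiHa peak of 599 bases (deposited p of 1.3e-07) and 2 knockout peaks with a highest fold of 7.52. HIPK2, EP300, CREBBP and USP7 had peaks in both lists at different places, and the knockout peaks of HIPK2 and EP300 had an FDR of 0.526. TP53BP1 (1e-87) and the phosphatase PPM1D (4e-52) had SiHa peaks alone, and 22.2% of the 9 genes with a SiHa peak had no knockout peak (exact interval 2.81 to 60.0%), against 73.0% over all genes. ATR and HUWE1 had a knockout peak alone, 22.2% of the 9 genes with a knockout peak (exact interval 2.81 to 60.0%, which includes the 47.1% over all genes).

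The BCL2 family, in which MCL1 belongs, had SiHa peaks in 6 of 14 genes. The death inhibitor BCL2L1 had 1 SiHa peak of 1314 bases with p listed at 0 and 3 knockout peaks, and BCL2 itself had 3 SiHa peaks, none with a p below 0.0066, and 1 knockout peak with a fold of 59.0. A knockout peak overlapped a SiHa peak in both. BCL2L13 had peaks in both lists at different places, its knockout peak with an FDR of 0.525, and BOK, BCL2L12 and BMF had SiHa peaks alone. Thus 3 of the 6 genes with a SiHa peak had no knockout peak (exact interval 11.8 to 88.2%). That interval includes the 73.0% over all genes. Among 20 proteins bound by E6 or E7 outside p53 and RB, 11 of the 12 with a SiHa peak had no knockout peak (91.7%, exact interval 61.5 to 99.8%, which includes the 73.0% over all genes). The strongest of these was MAGI3, a junction scaffold, with 4 SiHa peaks and p listed at 0. IRF3 (deposited p of 2.5e-40) and MAGI1 (2.5e-22) also had SiHa peaks alone. The gene spans of IRF3 and BCL2L12 overlap, and the BCL2L12 peak carried the same p of 2.5e-40. Whether these 2 genes hold separate signals was not tested. PTPN14, the phosphatase that E7 destroys, had 3 SiHa and 2 knockout peaks at different places, and PATJ and UBR4 had a knockout peak alone. The latter 2 were 66.7% of the 3 genes with a knockout peak (exact interval 9.43 to 99.2%), against 47.1% over all genes.

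For BAX and EP300, whose SiHa peaks reached upstream of the RefSeq start, the bases under the peak can be shown. The sequences are the 250 bases before the RefSeq start (GRCh38.p14), 5′ to 3′ on the gene's strand, with the bases under the peak in capitals. BAX has its window at chr19:48954625-48954874 on the plus strand and EP300, an acetyltransferase that acts with p53, has its window at chr22:41092342-41092591 on the plus strand.
BAX: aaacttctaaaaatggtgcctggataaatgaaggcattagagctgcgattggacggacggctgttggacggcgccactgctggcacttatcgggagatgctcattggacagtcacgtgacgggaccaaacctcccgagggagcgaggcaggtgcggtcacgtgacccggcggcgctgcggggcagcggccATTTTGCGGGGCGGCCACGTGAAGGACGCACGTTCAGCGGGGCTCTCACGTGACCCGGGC
EP300: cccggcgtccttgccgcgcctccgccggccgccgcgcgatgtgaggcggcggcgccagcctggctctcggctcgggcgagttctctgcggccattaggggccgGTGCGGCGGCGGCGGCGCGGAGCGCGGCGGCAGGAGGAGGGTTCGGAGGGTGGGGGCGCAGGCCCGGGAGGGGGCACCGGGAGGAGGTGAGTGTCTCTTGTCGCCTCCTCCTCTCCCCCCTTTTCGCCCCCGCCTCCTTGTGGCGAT

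The peaks covered 60 of these bases in BAX (deposited p of 1e-09) and 147 in EP300 (deposited p of 7.4e-05), and no knockout peak overlapped them. Cytidine, the base that carries the mark, made up 30.0% of the covered bases in BAX and 31.3% in EP300. The whole windows of these genes held 26.4% and 34.8%, so the covered bases were above their window in BAX and below it in EP300. The median window of 35116 RefSeq promoters held 28.0% cytidine over its 250 bases. The p53 target BBC3 had a SiHa peak (deposited p of 0.027) over 99 bases of a window that lay mostly inside its gene span. Those bases held 17.2% cytidine. A motif of 4 cytidines, each followed by any 2 bases, has been described around ac4C sites. It was found on the gene's strand under the EP300 peak, and on that strand not in the window of BAX. The BBC3 window held it on neither strand. In the knockout list, the CCNF peak (deposited p of 0.026, FDR 0.526) covered 53 bases of its window. Those bases held 41.5% cytidine, against 28.8% over the window, and the motif was found under the peak. The motif was present on the gene's strand in 69.7% of all windows and on the opposite strand in 71.1%, so its presence separates few of them. Matches were searched on both strands and may overlap, and a match in a window is a description of its letters.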

How the data were processed

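Immunoprecipitated and input RNA of SiHa and NAT10-knockout cells was sequenced with a stranded mRNA kit, per the labels' protocols. FastQC 0.11.7 and GRCh38 (hg38) appear in the submitters' processing notes. For the aligner, the peak caller with its thresholds, the annotation and the handling of replicates, no source used here gives a name or a setting. The deposited lists hold, per the file headers and values, a p-value for each peak, and in the knockout list the FDR and the same p-value as log10, with a fold enrichment. This fold is a ratio, and the deposited list does not say to what. Depth is unknown.

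Unplaced sequences held 3 SiHa and 2 knockout peaks, which were dropped together with 1 duplicate SiHa line. RefSeq spans (GRCh38.p14), widened by 250 bases, named an identifier when at least 90% of its peak bases lay in a single span on a fitting strand, where the strand is listed. Where several identifiers fell to 1 span, that with at least 2 times the bases of the next kept the name. Of 9046 identifiers, 7870 (87.0%) were named. An overlap meant 1 or more bases in common on 1 strand. The functions were tested on simulated peaks. Intervals are 95% Clopper-Pearson. Python 3.11.15, pandas 2.3.3 and scipy 1.17.1 were used.

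The members and the pathway lists were chosen with earlier results of these data known. Named were all 9 members, NAT10 and, from each list, genes in both lists with overlapping peaks, then up to 4 further genes of each class by strongest deposited p. Values of some genes that this rule names are not reported here. Lists whose class held a few more were given in full, and some genes without peaks were named after their values were seen. Alternatives were a stricter p, a reduced SiHa list, the FDR, the repeated fold series, naming by position, the overlap rule and, added after seeing the data, naming without the margin.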

Additional observations from a re-analysis of the deposited data

How the results depend on the processing

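Of 89 recomputed counts over 13 results and 9 alternative settings, 75 stayed within 1.5 times the reported count. When just the 4557 strongest SiHa peaks were used, the 9 genes kept 12 of 21 SiHa peaks, and the genes with SiHa peaks alone fell from 4 to 2, since RB1 and CDKN1A left the list. In the pathway lists genes with SiHa peaks alone then fell from 45 to 19, p53 targets among them from 15 to 5, RB and E2F genes from 9 to 4, and 1 p53 target had a knockout peak alone. With only peaks of −log10 p above 8, genes in both lists fell from 22 to 12 and those with a knockout peak alone from 22 to 11, RB and E2F genes among them to 7. Without the repeated fold series these numbers were 14, 11 and 7. Counting a gene as in both lists only where peaks overlap left 12 genes. A reciprocal overlap of 50% left 0 of 21 overlapped SiHa peaks. For the other changes the cause was not tested. CCND1, MDM2 and MCL1 were in both lists in every setting run. No paired analysis was possible because the lists hold no value for a single replicate, and for the same reason no replicate could be left out. Depth is unknown, so it cannot be said which missing peaks were within reach of detection.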
